A study of Homo sapiens with 6 samples.

Results

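The genes of the actin filament and of actomyosin were followed through stable knockdown of LGR5 in LoVo, a long-established cell line derived from a human colorectal adenocarcinoma. The group is a list of 49 genes, picked by gene name, of which 46 had a probe that the platform annotation names and 44 were bright enough to test, out of 12111 genes tested in all. Total RNA was hybridised to Illumina bead arrays. Of the 6 arrays, 2 came from each of 3 groups: cells infected with a lentivirus carrying the LGR5 hairpin shLGR5-1, cells carrying a separate LGR5 hairpin (shLGR5-2), and cells carrying pLKO.1 as a non-targeting control (shCTL). All 3 groups were LoVo lines grown in RPMI with serum and puromycin, so selection and viral infection were common to every array. Each group is 1 stable line, and the labels do not say whether its 2 replicates were separate cultures. The p-values therefore measure the spread between these samples only, and that spread may be technical. Nothing in the labels says whether the lines are clones.

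Actin monomers assemble into polar filaments that push the cell membrane forward, brace cell junctions and, together with myosin II motors, generate contraction. The Arp2/3 complex starts branches on existing filaments, profilin supplies monomers, cofilin and gelsolin sever filaments, and capping protein stops their growth. Tropomyosins, alpha-actinins, fascin and calponins stabilise or bundle filaments, ERM proteins tie them to the membrane, and talin, vinculin, zyxin and VASP family proteins connect them to adhesions. In intestinal epithelium these proteins build the brush border and the contractile belt at cell junctions. Many of their genes are known targets of serum response factor (SRF), which binds a promoter motif called the CArG box, and of its actin-sensing coactivators, the MRTFs.

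Promoter sequence was read from a RefSeq table (GRCh38.p14) that spans 250 bases before to 50 bases after each transcription start and holds 42 of the 49 genes. A CArG box, searched on both strands, was present for 5 of these 42 genes (11.9%), against 438 of 27305 genes in the table (1.60%). Counted by promoter window, the box was in 5 of 70 windows of the actin genes (7.14%) and in 454 of 35116 windows overall (1.29%). Among them were ACTG1, CNN2 and TPM4, and the 250 bases before a listed start of each of these 3 genes are shown because their responses are set out below. The windows of the others are not shown here. Each is written 5′ to 3′ on the strand of its gene, with the CArG box in capitals. The windows lie at chr17:81512800-81513049 (minus strand) for ACTG1, chr19:1026358-1026607 (plus strand) for CNN2 and chr19:16067288-16067537 (plus strand) for TPM4.
ACTG1: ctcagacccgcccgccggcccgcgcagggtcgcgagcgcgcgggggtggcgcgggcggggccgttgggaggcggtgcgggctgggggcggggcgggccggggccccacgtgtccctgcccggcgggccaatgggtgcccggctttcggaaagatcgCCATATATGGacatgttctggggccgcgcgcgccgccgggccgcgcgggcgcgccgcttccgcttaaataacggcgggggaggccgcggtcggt
CNN2: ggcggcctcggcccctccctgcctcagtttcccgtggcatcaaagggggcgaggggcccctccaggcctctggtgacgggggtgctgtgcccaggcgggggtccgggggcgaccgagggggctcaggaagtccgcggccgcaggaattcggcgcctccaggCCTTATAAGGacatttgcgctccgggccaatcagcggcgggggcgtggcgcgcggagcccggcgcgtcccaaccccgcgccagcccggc
TPM4: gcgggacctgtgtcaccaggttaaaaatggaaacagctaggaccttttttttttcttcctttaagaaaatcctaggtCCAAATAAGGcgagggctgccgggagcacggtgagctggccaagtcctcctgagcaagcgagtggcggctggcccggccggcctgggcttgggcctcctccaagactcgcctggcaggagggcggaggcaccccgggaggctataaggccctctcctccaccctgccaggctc
The box begins at position -94 from the start in ACTG1, -89 in CNN2 and -173 in TPM4. TPM4 also has listed starts further downstream, with windows that begin at chr19:16076245 and chr19:16076766, and no CArG box was found in those windows. A GC box, GGGCGG or its complement CCGCCC, which may overlap other motifs, was in the windows of 41 of the 42 genes (97.6%), against 48.3% of all genes. By window the GC box was in 54 of 70 (77.1%), against 45.0% of all windows, and the actin genes have more windows per gene than the table as a whole. A match is a description of these letters and not a binding site, and the arrays carry no measurement of binding.

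Values are the authors' normalized intensities, in arbitrary units of brightness for 1 probe per gene, the brightest of those kept. Levels of different genes cannot be ranked by them, since probes differ in efficiency. A probe was called above background when it exceeded 16.5, a threshold taken from the spread of the values below 0. Fold changes were computed from log2(intensity + 16) and carry the standard error (SE, 2 arrays against 2) of a limma fit over all 12111 genes, and a gene was called when its Benjamini-Hochberg adjusted p was below 0.05. LGR5 itself read -1.1 and 7.0 under shLGR5-1, 12.5 and 19.2 under shLGR5-2, and 44.4 and 49.2 in shCTL. It was lower under shLGR5-1 by at least 2.84-fold (limma adjusted p = 0.00167). Under shLGR5-2 it was 1.98-fold lower with the offset of 16 (0.0197), at a mean of 15.85, below the threshold. LGR5 entered the test only through shCTL, where it is high, so both calls are a description of these levels. The shLGR5-2 call was not made with a floor of 1 (0.287) or without the filter on dim probes (0.0553). The LGR5 call under shLGR5-2 rests on a probe near background, and leaving out either shLGR5-2 array or either shCTL array ended it (adjusted p 0.0508 to 0.107). Markers of colorectal epithelium were above background on both arrays of every group for 7 of 8 genes, with VIL1, which encodes the brush border protein villin, dim under shLGR5-2. Of the smooth muscle markers MYH11, DES, CNN1, ACTG2, LMOD1 and SYNPO2, 0 of 6 were above background on both arrays of any group. Replicates correlated across genes at 0.974 in shLGR5-1, 0.986 in shLGR5-2 and 0.991 in shCTL.

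Of the 44 genes tested, 20 rose, 15 fell and 9 were not called under shLGR5-1 against shCTL (limma). The 20 are 45.5% of those tested and the 15 are 34.1%, and over all genes tested 40.3% were called higher and 31.5% lower. The median log2 fold change was 0.34 for the actin genes and 0.28 for all genes. In RNA from whole cultures, fewer cells expressing a gene and less RNA per cell cannot be told apart. The change was at least 2-fold for 18 of the genes that rose and for 10 of those that fell. Over all 12111 genes, 2851 were called higher and 3141 lower by as much. Under shLGR5-2, 20 of the 44 rose, 7 fell and 17 were not called. Those are 45.5% and 15.9%, against a background of 21.6% of all genes called higher and 22.6% called lower, with a median log2 fold change of 0.32 for the actin genes and -0.00 for all genes. Of the 44, 8 rose and 4 fell by at least 2-fold, against 1305 and 1601 of all 12111 genes. The shLGR5-2 counts depended on single arrays: 13 rose without shCTL replicate 1, and the genes that fell numbered 4 without shLGR5-2 replicate 1, 4 without shCTL replicate 1 and 3 without shCTL replicate 2. The shares of all genes called without those arrays are not given here. Both comparisons use the same 2 shCTL arrays. A few genes entered the test through some groups only: TAGLN through shLGR5-1, TPM2 through shLGR5-1 and shCTL, and LIMA1, RDX and ENAH through shLGR5-2 and shCTL. A gene that enters only through groups where it is high is bound to differ from the dim group, so the counts are not read as support for these genes.

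**Figure D1:**
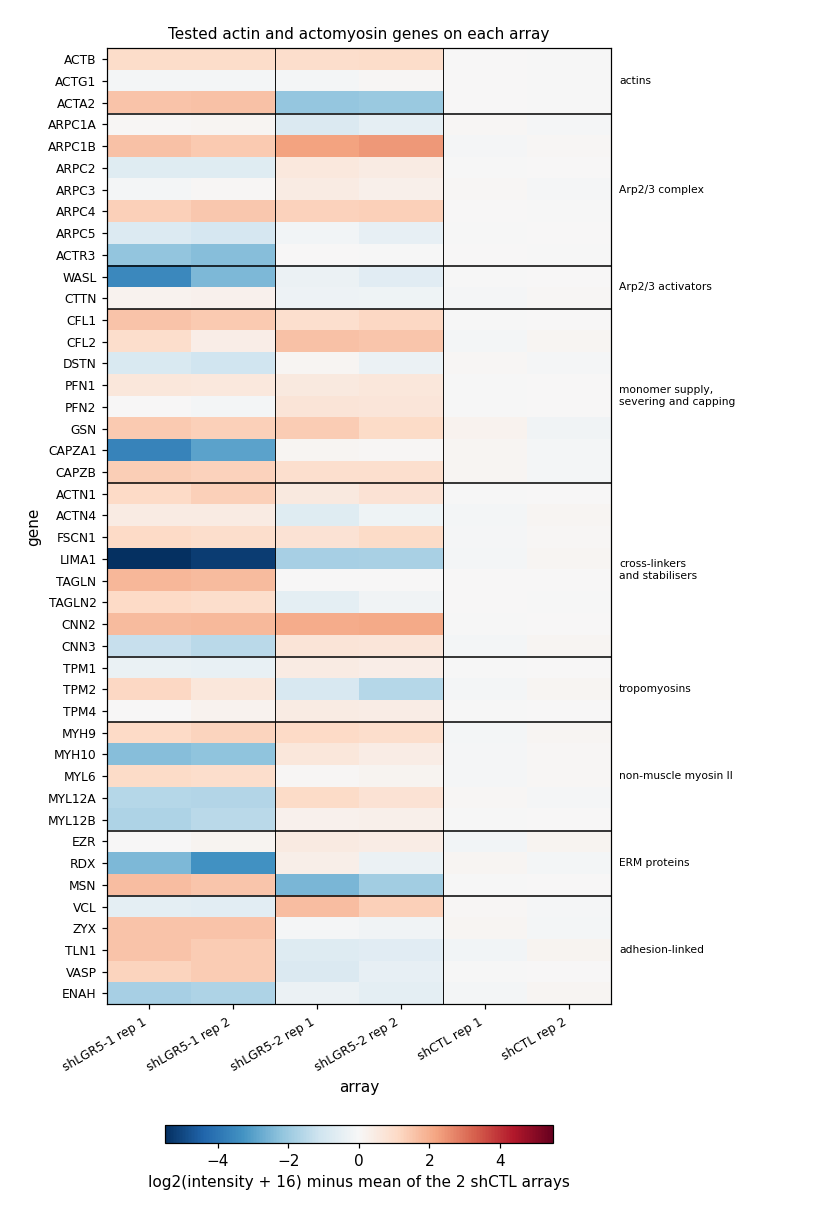
Each row is 1 tested gene, grouped by role, and each column 1 array, in the order shLGR5-1, shLGR5-2, shCTL. Colour gives log2(intensity + 16) minus the mean of the 2 shCTL arrays (red higher, blue lower). Replicates have similar colours, and the shLGR5-1 columns hold the darkest blue cells, for LIMA1.

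The cytoplasmic actins and the smooth muscle actin behaved differently. ACTB, which encodes beta-actin, the main building block of filaments in non-muscle cells, read 25484 and 25827 under shLGR5-1, 24432 and 25209 under shLGR5-2, and 12739 and 12567 in shCTL. All 4 knockdown arrays lay above both controls, a 2.03-fold rise under shLGR5-1 (log2 fold change 1.02 ± 0.10, limma adjusted p = 0.000839) and a 1.96-fold rise under shLGR5-2 (0.97 ± 0.10, 0.00211). These values are close to the top of the scale, where the highest value in the table was 29227, and the 2 other ACTB probes differed from shCTL by 0.95 and 1.51 under shLGR5-1 and by 1.07 and 1.39 under shLGR5-2 on the log2 scale. ACTG1, encoding gamma-actin, read 23528 and 23607 under shLGR5-1, 23439 and 26725 under shLGR5-2, against 26024 and 25167 in shCTL, and was called neither under shLGR5-1 (log2 fold change -0.12 ± 0.12, limma adjusted p = 0.411) nor under shLGR5-2 (-0.03 ± 0.12, 0.847). A second ACTG1 probe, further from the top of the scale, differed from shCTL by 0.31 under shLGR5-1 and 0.66 under shLGR5-2.

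ACTA2, the actin of smooth muscle and of contractile fibroblasts, moved in opposite directions in the 2 knockdown lines. It read 1005 and 1044 under shLGR5-1, 62.7 and 67.4 under shLGR5-2, and 336 and 322 in shCTL. The 3 groups did not overlap. ACTA2 rose 3.02-fold under shLGR5-1 (1.59 ± 0.11, limma adjusted p = 0.000308) and fell 4.26-fold under shLGR5-2 (-2.09 ± 0.11, 0.000271). Beside it, the summed intensity of the 6 smooth muscle markers was 2.6 to 5.5 under shLGR5-1, 11 to 23.8 under shLGR5-2 and 2.7 to 4.4 in shCTL. MYH11, DES, CNN1, ACTG2 and LMOD1 were below the threshold on all 6 arrays and SYNPO2 exceeded it on 1. The fibroblast markers, 4 of 7 of which passed the threshold on some array, summed to 61.9 to 92.0 under shLGR5-1, 85.3 to 87.1 under shLGR5-2 and 27.7 to 75.6 in shCTL, with LUM, COL3A1 and THY1 below the threshold on every array. PDGFRB read 52.3 and 39.3 under shLGR5-1, 18.1 and -6.4 under shLGR5-2, and 19.4 and 25.7 in shCTL. It was called only between the hairpins and entered the test only through shLGR5-1 and shCTL, so that call describes the levels. DCN leaned the other way, at -4.4 and 19.4 under shLGR5-1 and 24.1 and 41.0 under shLGR5-2, and was not called. The part of these markers in the ACTA2 result was not tested.

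**Figure D2:**
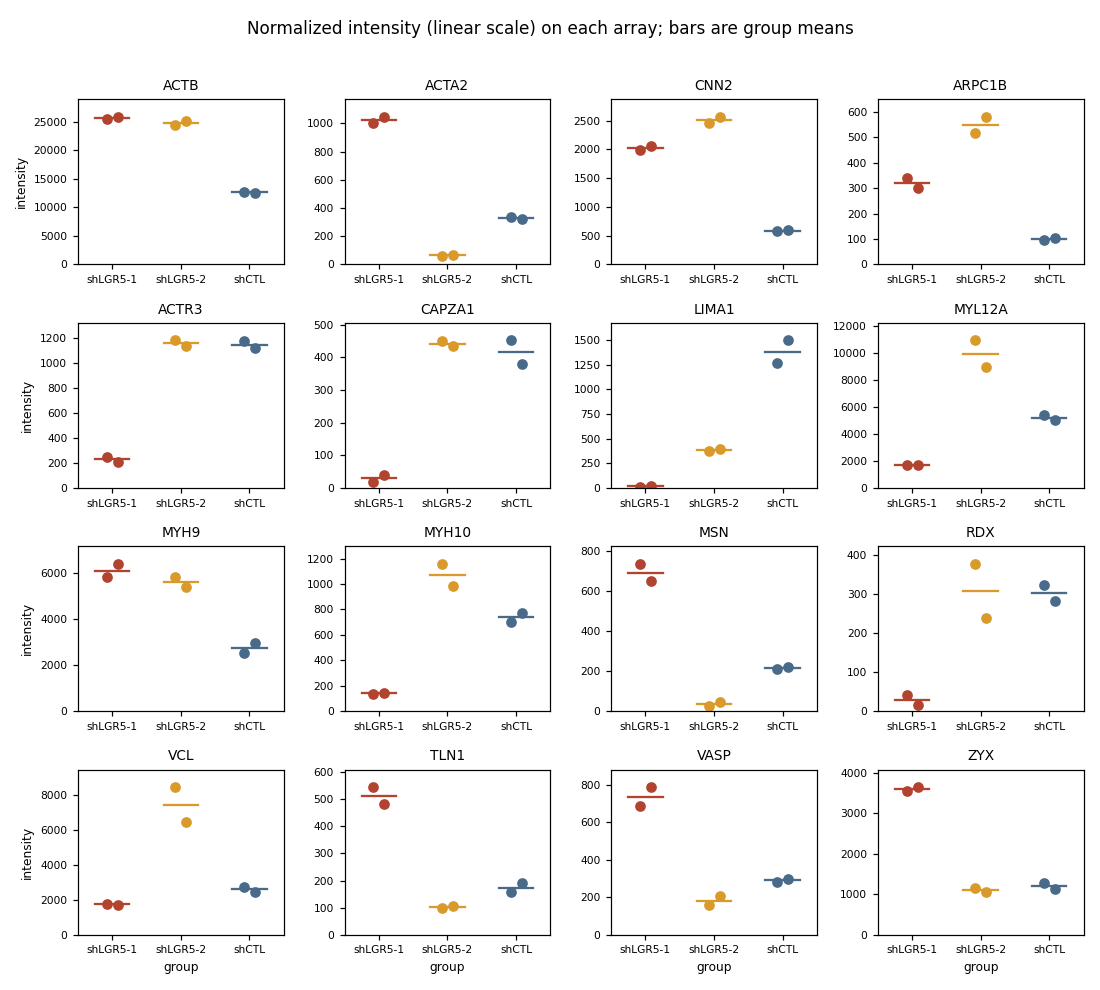
Normalized intensity on a linear axis from 0 for 16 of the tested genes, with 1 point per array and a short bar at the mean of the 2 arrays, groups from left to right shLGR5-1, shLGR5-2 and shCTL. ACTA2 lies above shCTL under shLGR5-1 and below it under shLGR5-2, whereas ACTB lies above shCTL under both hairpins.

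Subunits of the Arp2/3 complex did not move together. Of 7 tested, 2 rose and 3 fell under shLGR5-1 (limma), where 40.3% of all genes were called higher and 31.5% lower. Under shLGR5-2, 3 rose and 1 fell, against 21.6% and 22.6% of all genes. No count by role, here or below, was tested against these shares. ACTR2 was not analysed here. ARPC1B, a subunit needed for assembly of the complex, read 338 and 299 under shLGR5-1, 516 and 580 under shLGR5-2, and 94.8 and 104 in shCTL. It rose 2.90-fold under shLGR5-1 (1.54 ± 0.13, limma adjusted p = 0.000526) and 4.88-fold under shLGR5-2 (2.29 ± 0.13, 0.000364). Its paralogue ARPC1A had 4861 and 4970 under shLGR5-1, 2667 and 3303 under shLGR5-2, against 4804 and 4394 in shCTL, a fall of 1.55-fold under shLGR5-2 (0.0232) that ended when either shCTL array or shLGR5-2 replicate 1 was left out (adjusted p up to 0.113). ARPC4, a subunit of the core that holds the complex together, read 1334 and 1533 under shLGR5-1, 1289 and 1347 under shLGR5-2, and 538 and 527 in shCTL. The rise was 2.64-fold under shLGR5-1 (1.40 ± 0.12, limma adjusted p = 0.000551) and 2.43-fold under shLGR5-2 (1.28 ± 0.12, 0.00148), with all 4 knockdown arrays above both controls.

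ACTR3 encodes Arp3, 1 of the actin-like subunits on which a new branch is built. It read 244 and 211 under shLGR5-1, 1181 and 1141 under shLGR5-2, and 1177 and 1119 in shCTL. The shLGR5-1 arrays stood apart while the other groups overlapped: ACTR3 fell 4.79-fold under shLGR5-1 (-2.26 ± 0.12, limma adjusted p = 0.0002) and had a log2 fold change of 0.02 ± 0.12 under shLGR5-2 (0.927). ARPC2, a core subunit, read 3161 and 3144 under shLGR5-1, 7606 and 7028 under shLGR5-2, against 5004 and 5140 in shCTL, lower by 1.61-fold under shLGR5-1 (0.00354) and higher by 1.44-fold under shLGR5-2 (0.0161). Neither ARPC2 call held when its kept probes were averaged (adjusted p = 0.887 under shLGR5-1 and 0.566 under shLGR5-2). The second, dim probe differed from shCTL by 0.60 under shLGR5-1 and -0.16 under shLGR5-2 on the log2 scale. The shLGR5-2 call also ended without shLGR5-2 replicate 1 or either shCTL array (up to 0.0761). ARPC5 fell 1.81-fold under shLGR5-1 (0.00461), and ARPC3 was not called under either hairpin.

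Of the Arp2/3 activators, WASL, which encodes N-WASP, read 74.4 and 173 under shLGR5-1, 822 and 668 under shLGR5-2, and 1010 and 1047 in shCTL. The shLGR5-1 arrays differed from each other, yet both lay far below the other 4, a fall of 7.99-fold (-3.00 ± 0.36, limma adjusted p = 0.00139); under shLGR5-2 the log2 fold change was -0.46 ± 0.36 (0.348). CTTN, encoding cortactin, which stabilises branches, ranged from 1119 to 1597 over the 6 arrays and was not called against shCTL under either hairpin.

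Genes for monomer supply, severing and capping were called higher in 4 cases and lower in 2 of 8 under shLGR5-1, and higher in 6 and lower in 0 under shLGR5-2 (limma). The shares of all genes were 40.3% higher and 31.5% lower under shLGR5-1, and 21.6% and 22.6% under shLGR5-2. CFL1, the main non-muscle cofilin, which severs old filaments, read 12531 and 11640 under shLGR5-1, 8152 and 9247 under shLGR5-2, and 4200 and 4302 in shCTL. The rise was 2.83-fold under shLGR5-1 (1.5 ± 0.12, limma adjusted p = 0.000467) and 2.04-fold under shLGR5-2 (1.03 ± 0.12, 0.00292), with no overlap between groups. The related DSTN, encoding destrin, went the other way under shLGR5-1, at 2174 and 1836 against 4115 and 3690 in shCTL, a 1.94-fold fall (0.00758) that was lost without shCTL replicate 1 (0.0517); under shLGR5-2 it read 4161 and 3102 (adjusted p = 0.651). CFL2, the muscle-type cofilin, was dim, at 56.2 and 31.3 under shLGR5-1, 98.4 and 91.0 under shLGR5-2, and 18.0 and 24.1 in shCTL, and rose 3.0-fold under shLGR5-2 (1.58 ± 0.23, 0.00556). With an offset of 50 in place of 16 that CFL2 log2 fold change was 1.03.

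PFN1, the main profilin, read 20776 and 20506 under shLGR5-1, 19881 and 20995 under shLGR5-2, and 13481 and 13866 in shCTL. It rose 1.51-fold under shLGR5-1 (0.59 ± 0.11, limma adjusted p = 0.00524) and 1.49-fold under shLGR5-2 (0.58 ± 0.11, 0.0109), although the shLGR5-2 call was lost without either shCTL array (up to 0.0587). A second PFN1 probe gave larger log2 differences from shCTL, 1.35 under shLGR5-1 and 1.25 under shLGR5-2. PFN2, a profilin best known from brain, rose 1.61-fold under shLGR5-2 (0.00737) and had a log2 fold change of -0.04 under shLGR5-1 (0.780). GSN, encoding the severing and capping protein gelsolin, read 93.9 and 85.2 under shLGR5-1, 90.5 and 68.4 under shLGR5-2, against 29.4 and 19.7 in shCTL, 2.62-fold higher under shLGR5-1 (1.39 ± 0.19, 0.00195) and 2.35-fold under shLGR5-2 (1.24 ± 0.19, 0.00613).

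The 2 subunits of capping protein, which work only as a pair, diverged under shLGR5-1. CAPZA1, an alpha subunit, read 17.7 and 40.6 under shLGR5-1, 449 and 435 under shLGR5-2, and 451 and 379 in shCTL, a 9.83-fold fall under shLGR5-1 (-3.30 ± 0.27, limma adjusted p = 0.000466). Because its shLGR5-1 values were close to background, the log2 fold change was -2.57 with an offset of 50 and -3.95 with a floor of 1. CAPZB, the beta subunit, read 1188 and 1116 under shLGR5-1, 864 and 878 under shLGR5-2, and 479 and 423 in shCTL, and rose 2.5-fold under shLGR5-1 (1.32 ± 0.12, 0.000605) and 1.90-fold under shLGR5-2 (0.93 ± 0.12, 0.0037). A second CAPZB probe gave smaller log2 differences from shCTL, 0.89 under shLGR5-1 and 0.35 under shLGR5-2. LIMK1, the kinase that inactivates cofilin, had 1 named probe, which stayed between -9.4 and 11.3 on all arrays and was not tested.

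Cross-linkers and filament stabilisers included LIMA1, with the largest fall among the 44 genes under shLGR5-1. Of 8 tested, 5 rose and 2 fell under shLGR5-1 (limma), where 40.3% of all genes were called higher and 31.5% lower. Under shLGR5-2, 4 rose and 1 fell, against 21.6% and 22.6% of all genes. FLNA was not analysed here. LIMA1, which encodes EPLIN, a filament-bundling protein that links actin to the cadherin complex, read 11.7 and 21.4 under shLGR5-1, 379 and 394 under shLGR5-2, and 1265 and 1497 in shCTL. It fell 43.3-fold under shLGR5-1 (-5.44 ± 0.19, limma adjusted p = 0.000123), where 1 of the 2 arrays was above the threshold, and 3.46-fold under shLGR5-2 (-1.79 ± 0.19, 0.00195). LIMA1 entered the test only through shLGR5-2 and shCTL, where it is high, so the shLGR5-1 call is a description. The depth of the shLGR5-1 fall depends on the offset, with a log2 fold change of -4.43 for an offset of 50 and -6.44 for a floor of 1.

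CNN2, a calponin of non-muscle cells, read 1984 and 2067 under shLGR5-1, 2450 and 2562 under shLGR5-2, and 582 and 594 in shCTL. The rise was 3.38-fold under shLGR5-1 (1.76 ± 0.11, limma adjusted p = 0.000242) and 4.18-fold under shLGR5-2 (2.06 ± 0.11, 0.000265). Its relative CNN3 fell 2.59-fold under shLGR5-1 (-1.37 ± 0.14, 0.000758) and rose 1.60-fold under shLGR5-2 (0.68 ± 0.14, 0.0138), with values of 412 and 356 under shLGR5-1, 1665 and 1619 under shLGR5-2, against 951 and 1088 in shCTL. The CNN3 rise was lost without shCTL replicate 1 or either shLGR5-2 array (adjusted p up to 0.0741). ACTN1, the alpha-actinin of stress fibres and adhesions, read 1673 and 1961 under shLGR5-1, 1131 and 1328 under shLGR5-2, and 759 and 781 in shCTL. It rose 2.33-fold under shLGR5-1 (1.22 ± 0.15, 0.00132) and 1.58-fold under shLGR5-2 (0.66 ± 0.15, 0.019), a call that did not hold without shLGR5-2 replicate 2 or either shCTL array (up to 0.0938). ACTN4, a second non-muscle alpha-actinin, was not called under shLGR5-1 (0.45 ± 0.19, 0.082) or shLGR5-2 (0.121), and this depends on the processing: under shLGR5-1 it was called with an offset of 50 (0.0494), the strict filter (0.0492), the span trend removed (0.0208) and the compared arrays alone (0.047). Under shLGR5-2 it was called lower with the span trend removed (0.0416).

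FSCN1, encoding fascin, the bundler of filopodial filaments, read 6618 and 6112 under shLGR5-1, 5299 and 6353 under shLGR5-2, and 2948 and 3224 in shCTL. It rose 2.06-fold under shLGR5-1 (1.04 ± 0.14, limma adjusted p = 0.00205) and 1.88-fold under shLGR5-2 (0.91 ± 0.14, 0.00672), with all knockdown arrays above both controls. TAGLN2, a transgelin of non-muscle cells, read 5032 and 4664 under shLGR5-1, 1623 and 2082 under shLGR5-2, against 2449 and 2308 in shCTL, a 2.03-fold rise under shLGR5-1 (1.02 ± 0.16, 0.00315) that missed the threshold once the trend with genomic span was removed (0.0612), and it was not called under shLGR5-2 (-0.37 ± 0.16, 0.12). TAGLN, the smooth muscle transgelin, read 41.5 and 38.1 under shLGR5-1, -3.7 and -3.2 under shLGR5-2, and -0.6 and -8.0 in shCTL. It was not above background on any shLGR5-2 or shCTL array and was at least 2.42-fold higher under shLGR5-1 than in shCTL. TAGLN entered the test only through shLGR5-1, where it is high, so its call there is a description of these levels. A fold written as "at least" sets each dim value to the threshold and adds no offset.

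Tropomyosins coat filaments and govern what else can bind them. Of 3 tested, 1 rose and 1 fell under shLGR5-1, where 40.3% of all genes were called higher and 31.5% lower. Under shLGR5-2, 2 rose and 1 fell, against 21.6% and 22.6% of all genes. TPM1 read 2709 and 2701 under shLGR5-1, 4796 and 4619 under shLGR5-2, and 3524 and 3550 in shCTL, called lower under shLGR5-1 (-0.39 ± 0.10, limma adjusted p = 0.0218) and higher under shLGR5-2 (0.41 ± 0.10, 0.0293). Both TPM1 calls were lost on leaving out any 1 of their 4 arrays, where the adjusted p reached 0.0751 under shLGR5-1 and 0.104 under shLGR5-2. A second TPM1 probe, about as bright, differed from shCTL by -0.43 under shLGR5-1 and 0.39 under shLGR5-2 on the log2 scale. The remaining pair of TPM1 probes was dim, with means of 48.8 or less in every group. That pair differed from shCTL by -1.39 and -1.43 under shLGR5-1 and by -0.13 and -0.12 under shLGR5-2. TPM2 read 86.8 and 57.3 under shLGR5-1, 9.7 and -0.7 under shLGR5-2, and 27.1 and 35.3 in shCTL, 1.85-fold higher under shLGR5-1 (0.88 ± 0.30, 0.0429) and at least 1.88-fold lower under shLGR5-2 (0.0258). Leaving out shLGR5-1 replicate 1 or either shCTL array ended its first call. That call was also lost with a floor of 1 (limma adjusted p = 0.416), without the filter on dim probes (0.113) and with arrays centred on their bright probes (0.0694). The second call was lost without shLGR5-2 replicate 2 or either shCTL array, with a floor of 1 (0.0984) and without the filter (0.076). TPM2 entered the test only through shLGR5-1 and shCTL, where it is above background, so its shLGR5-2 call is a description. TPM4 read 487 and 545 under shLGR5-1, 671 and 647 under shLGR5-2, against 473 and 486 in shCTL. Its rise under shLGR5-2 (0.45 ± 0.12, 0.031) did not survive leaving out any of the 4 arrays (up to 0.119), and another TPM4 probe differed from shCTL by -0.63 under shLGR5-1 and 1.33 under shLGR5-2. TPM3 was not analysed here.

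Non-muscle myosin II is a hexamer of heavy chains, essential light chains and regulatory light chains. Of its 5 tested genes, 2 rose and 3 fell by at least 2-fold under shLGR5-1 (limma). Of all 12111 genes, 2851 rose and 3141 fell by as much. Under shLGR5-2, 3 rose and 0 fell, against 21.6% and 22.6% of all genes. MYH9, the heavy chain of myosin IIA, read 5801 and 6374 under shLGR5-1, 5828 and 5365 under shLGR5-2, and 2523 and 2945 in shCTL. It rose 2.22-fold under shLGR5-1 (1.15 ± 0.14, limma adjusted p = 0.0013) and 2.05-fold under shLGR5-2 (1.03 ± 0.14, 0.00401). A second MYH9 probe differed from shCTL by 1.14 under shLGR5-1 and 0.57 under shLGR5-2 on the log2 scale. MYH10, the heavy chain of myosin IIB, read 135 and 147 under shLGR5-1, 1158 and 982 under shLGR5-2, and 701 and 775 in shCTL. The groups did not overlap: MYH10 fell 4.81-fold under shLGR5-1 (-2.27 ± 0.14, 0.000244) and was called 1.44-fold higher under shLGR5-2 (0.52 ± 0.14, 0.0333), a call that ended without shLGR5-2 replicate 1 or either shCTL array (up to 0.144) and with a floor of 1 (0.0502).

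The light chains differed as well. MYL6, the essential light chain, read 20954 and 20167 under shLGR5-1, 10700 and 11375 under shLGR5-2, and 9649 and 10727 in shCTL, a 2.02-fold rise under shLGR5-1 (1.01 ± 0.12, limma adjusted p = 0.00123) with overlapping values for shLGR5-2 and shCTL (0.463). MYL12A, a regulatory light chain, read 1725 and 1699 under shLGR5-1, 10901 and 8921 under shLGR5-2, and 5382 and 4982 in shCTL, 3.01-fold lower under shLGR5-1 (-1.59 ± 0.14, 0.000585) and 1.90-fold higher under shLGR5-2 (0.93 ± 0.14, 0.00628). MYL12B, its near-identical neighbour on chromosome 18, read 2480 and 2897 under shLGR5-1, 9700 and 9923 under shLGR5-2, against 8045 and 8206 in shCTL, 3.02-fold lower under shLGR5-1 (-1.59 ± 0.13, 0.000421) and not called under shLGR5-2 (0.14). The sequences of the MYL12A and MYL12B transcripts are so alike that their probes may read both. MYL9, the regulatory light chain best known from smooth muscle, stayed too dim to test, with its 2 probes between -19.6 and 46.5.

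**Figure D3:**
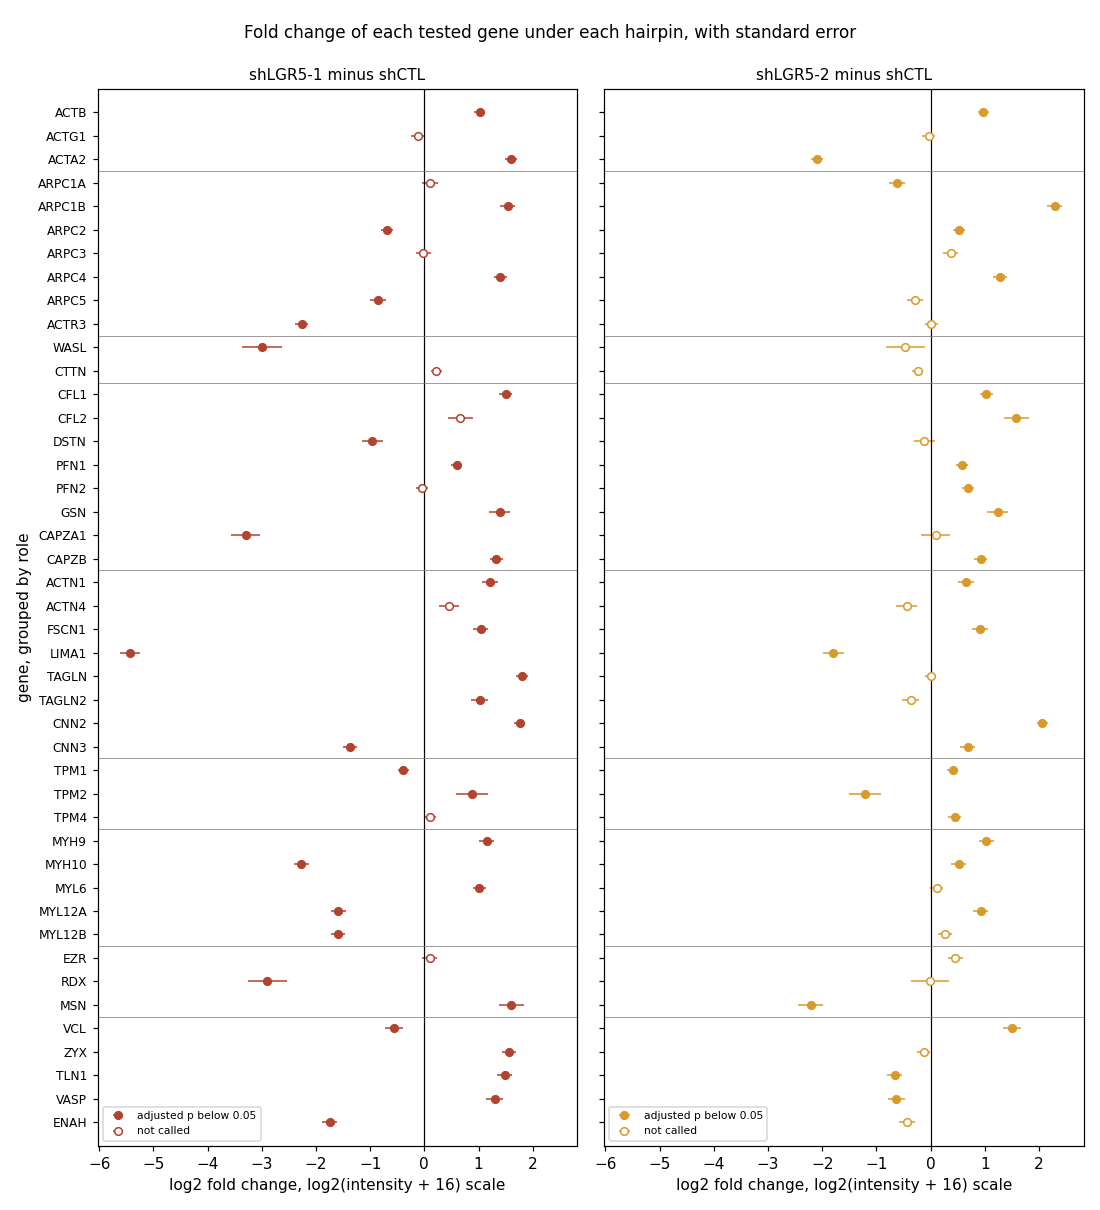
Log2 fold change against shCTL for each tested gene, grouped by role, shLGR5-1 in the left panel and shLGR5-2 in the right, with bars for the SE, filled points for called genes and open points for the others. ACTA2, MSN, VCL and MYL12A have points on opposite sides of 0, and CNN2, ARPC1B and ACTB have both on the higher side.

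The ERM proteins, which anchor filaments to membrane proteins, showed a different response for each gene. MSN, encoding moesin, read 738 and 650 under shLGR5-1, 24.5 and 46.4 under shLGR5-2, and 213 and 220 in shCTL. It rose 3.05-fold under shLGR5-1 (1.61 ± 0.23, limma adjusted p = 0.00237) and fell 4.63-fold under shLGR5-2 (-2.21 ± 0.23, 0.0019), with no overlap between any of the groups. RDX, encoding radixin, read 41.8 and 15.8 under shLGR5-1, with 1 of the 2 arrays above the threshold, 377 and 238 under shLGR5-2, and 324 and 283 in shCTL. It fell 7.44-fold under shLGR5-1 (-2.89 ± 0.36, 0.00146), or by 2.18 on the log2 scale with an offset of 50, and had a log2 fold change of -0.01 ± 0.36 under shLGR5-2 (0.982). RDX entered the test only through shLGR5-2 and shCTL, where it is high, so the shLGR5-1 call is a description. EZR, which encodes ezrin, the ERM protein of the intestinal brush border, ranged from 6735 to 10560 over the 6 arrays and was not called under shLGR5-1 (0.573) or shLGR5-2 (0.0542). It was called higher under shLGR5-2 with an offset of 50 (0.0288), the strict filter (0.0275) and averaged probes (0.0374).

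Genes of adhesion-linked actin proteins were all called under shLGR5-1, 3 higher and 2 lower of 5, and 1 rose and 2 fell under shLGR5-2 (limma). The shares of all genes were 40.3% higher and 31.5% lower under shLGR5-1, and 21.6% and 22.6% under shLGR5-2. ZYX, encoding zyxin, which is recruited to strained stress fibres, read 3557 and 3641 under shLGR5-1, 1147 and 1055 under shLGR5-2, and 1289 and 1126 in shCTL. It rose 2.96-fold under shLGR5-1 (1.57 ± 0.13, limma adjusted p = 0.000447), while shLGR5-2 and shCTL overlapped (-0.13 ± 0.13, 0.444). A second ZYX probe differed from shCTL by 2.38 under shLGR5-1 and 0.34 under shLGR5-2 on the log2 scale. TLN1, encoding talin, the link between integrins and actin, read 544 and 483 under shLGR5-1, 100 and 107 under shLGR5-2, against 157 and 191 in shCTL, 2.79-fold higher under shLGR5-1 (1.48 ± 0.14, 0.000738) and 1.58-fold lower under shLGR5-2 (-0.66 ± 0.14, 0.0183). VASP, a protein that lengthens filaments at adhesions and leading edges, read 689 and 787 under shLGR5-1, 160 and 204 under shLGR5-2, against 283 and 296 in shCTL, 2.46-fold higher under shLGR5-1 (1.30 ± 0.16, 0.00138) and 1.55-fold lower under shLGR5-2 (-0.63 ± 0.16, 0.0277). The TLN1 fall under shLGR5-2 was lost without either shLGR5-2 array or shCTL replicate 2 (adjusted p up to 0.0846), and the VASP fall without shLGR5-2 replicate 1 or either shCTL array (up to 0.125).

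VCL, encoding vinculin, which reinforces talin and cadherin attachments, read 1774 and 1717 under shLGR5-1, 8441 and 6444 under shLGR5-2, and 2739 and 2440 in shCTL. It rose 2.84-fold under shLGR5-2 (1.51 ± 0.17, limma adjusted p = 0.00243). The 1.48-fold fall under shLGR5-1 (-0.56 ± 0.17, 0.0308) did not survive leaving out any 1 of the 4 arrays (up to 0.138), and another VCL probe differed from shCTL by 0.30 under shLGR5-1 and 2.05 under shLGR5-2. ENAH, a relative of VASP, read -8.8 and 1.6 under shLGR5-1, 29.2 and 22.4 under shLGR5-2, and 36.9 and 44.2 in shCTL. It was not above background under shLGR5-1, at least 2.45-fold lower than in shCTL (0.000494), and was not called under shLGR5-2 (-0.44 ± 0.15, 0.0644). ENAH entered the test only through shLGR5-2 and shCTL, where it is high, so its shLGR5-1 call is a description.

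The direct comparison of the hairpins asks whether the 2 knockdown lines themselves differ. Of the 44 genes, 15 were higher and 21 lower under shLGR5-1 than under shLGR5-2, and 8 were not called (limma). These are 34.1% and 47.7%, against 39.8% of all genes tested called higher and 33.6% called lower, with a median log2 fold change of -0.20 for the actin genes and 0.18 for all genes. A difference of at least 2-fold was found for 8 of the higher and 12 of the lower genes. Among all 12111 genes these numbered 3076 and 3264. MSN was 14.1-fold higher under shLGR5-1 than under shLGR5-2 (3.82 ± 0.23, limma adjusted p = 0.000162), ACTA2 12.8-fold (3.68 ± 0.11, 4.52e-05) and TLN1 4.42-fold (2.14 ± 0.14, 0.000217). VASP was 3.81-fold and ZYX 3.24-fold higher, and TAGLN2 2.62-fold. LIMA1 was 12.5-fold lower under shLGR5-1 (-3.64 ± 0.19, 0.000116), CAPZA1 10.5-fold (-3.39 ± 0.27, 0.00034) and RDX 7.37-fold (-2.88 ± 0.36, 0.00135). For LIMA1 and RDX, which entered the test only through shLGR5-2 and shCTL, these differences are a description. MYH10 was 6.92-fold lower, WASL 5.79-fold, MYL12A 5.72-fold, ACTR3 4.85-fold, VCL 4.20-fold, CNN3 4.15-fold, MYL12B 3.64-fold and ARPC2 2.31-fold. With an offset of 50 the log2 difference was 3.13 for MSN, -2.72 for LIMA1, -2.65 for CAPZA1 and -2.17 for RDX. The ARPC2 difference was not called when its probes were averaged (0.429).

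By role, 5 of 7 genes of the Arp2/3 complex were lower and 1 higher in the direct comparison, and 4 of 8 genes for monomer supply, severing and capping were lower and 2 higher. Adhesion-linked genes were 3 higher and 2 lower of 5. Among all genes, 39.8% were called higher and 33.6% lower between the hairpins. ACTB had a log2 fold change of 0.05 ± 0.10 between the hairpins (limma adjusted p = 0.698), PFN1 0.01 ± 0.11 (0.908), MYH9 0.12 ± 0.14 (0.458) and FSCN1 0.13 ± 0.14 (0.436). A second MYH9 probe differed by 0.56 between the hairpins, and 2 of the alternatives called MYH9 higher under shLGR5-1. A value that misses the threshold does not show that the lines are alike for these genes. Calls for ARPC3, CNN2 and TPM4 were lost when any 1 of the 6 arrays was left out. Both higher calls in the severing and capping group depended on single arrays: CAPZB was lost without any 1 of the 4 hairpin arrays (up to 0.107) and with centring (0.064), and CFL1 without replicate 1 of either hairpin (up to 0.0695). With the span trend removed, the CFL1 log2 difference turned to -0.23 (0.0854). The lower CFL2 call was lost without either shLGR5-2 array (up to 0.0838), and the lower ARPC5 call without shLGR5-1 replicate 2 or shLGR5-2 replicate 1 (up to 0.0726). ACTN1, called higher, was lost without the same pair of arrays (up to 0.0751).

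Further genes of the pathway were listed by role in addition to the 49. Of 15 tested genes of the WAVE complex and of branching regulators, 6 rose and 4 fell under shLGR5-1 (limma), with 40.3% of all genes called higher and 31.5% lower. Under shLGR5-2, 4 of the 15 rose and 2 fell, with 21.6% of all genes called higher and 22.6% lower. NCKAP1, a WAVE complex subunit, averaged 23.6 under shLGR5-1 and 560 in shCTL, a 14.6-fold fall (adjusted p = 0.000152). The coronin gene CORO1A, best known from leukocytes, read 231 and 193 under shLGR5-1, 508 and 454 under shLGR5-2, and 16.6 and 7.5 in shCTL, where 1 of the 2 arrays was above the threshold. It was called higher under shLGR5-1 (0.000293) and under shLGR5-2 (0.000224), with no fold given because the shCTL mean lies below the threshold. CORO1A entered the test only through the hairpin groups, where it is high, so these calls are a description of the levels. Beside it, the 4 leukocyte markers summed to 156 on both shLGR5-1 arrays, 132 to 163 under shLGR5-2 and 56.5 to 71.6 in shCTL. CD14 read 73.4 and 144.5 under shLGR5-1, 122 and 148 under shLGR5-2, and 11.5 and 25 in shCTL. LYZ went the other way, at 17.3 and 5.7 under shLGR5-1, 4.9 and 15.2 under shLGR5-2, and 32.1 and 41.3 in shCTL, and was called lower under shLGR5-1 (limma adjusted p = 0.0332) and under shLGR5-2 (0.0415). LYZ entered the test only through shCTL, where it is high. PTPRC exceeded the threshold on 1 array and CD3E on 0. The part of these markers in the CORO1A result was not tested. WASF2, another WAVE subunit, averaged 233 under shLGR5-2 against 7.9 and 24.1 on the shCTL arrays, with again 1 of those 2 above the threshold, and was called higher (0.0011). WASF2 too entered the test only through the hairpin groups, so its call is a description.

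Of 38 further actin-binding and SRF-pathway genes, 16 rose and 16 fell under shLGR5-1, against the same 40.3% and 31.5% of all genes, and 15 rose and 11 fell under shLGR5-2, against 21.6% and 22.6% (limma). IQGAP1, a scaffold protein that binds filaments, was not above background on either shLGR5-1 array, a level at least 53.8-fold lower than in shCTL (adjusted p = 0.000132). IQGAP1 entered the test only through shLGR5-2 and shCTL, where it is high, so that call is a description. PLS1, which encodes a plastin of the brush border, fell 33.2-fold and ADD3, an adducin of the membrane skeleton, 17.4-fold. Under shLGR5-2, CAPG, a capping protein of the gelsolin family, fell 7.06-fold, VIL1 was at least 3.25-fold lower, and MYO1C, a membrane-bound motor, rose 3.20-fold. VIL1 likewise entered only through shLGR5-1 and shCTL. MRTFA, an SRF coactivator, was not above background in shCTL and was at least 3.78-fold higher under shLGR5-1 and at least 3.18-fold higher under shLGR5-2. It entered the test only through the knockdown groups, where it is high, so these bounds are a description. SRF read 1574 and 1865 under shLGR5-1, 914 and 912 under shLGR5-2, and 906 and 1165 in shCTL, called higher under shLGR5-1 (log2 fold change 0.73, 0.0133) and not called under shLGR5-2 (-0.17, 0.466). MRTFB, a second SRF coactivator, read -5.3 and -14.3 under shLGR5-1, 163 and 68.7 under shLGR5-2, and 23.7 and 41.0 in shCTL. It was at least 1.89-fold lower under shLGR5-1, a description since it entered only through the other groups. Under shLGR5-2 it was called higher (1.37, limma adjusted p = 0.0416).

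Whether MRTFA, MRTFB or SRF levels bear on the genes with a CArG box was not tested.

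Gene length moved with the response to shLGR5-1. Over 7972 bright genes, the log2 fold change correlated with genomic span (the distance from a gene's first to last base in RefSeq) with a Spearman coefficient of -0.28 for shLGR5-1 against shCTL, and 0.03 for shLGR5-2 against shCTL. This is a description across genes, which share the same arrays and are not independent. Over the 44 actin genes the coefficient was -0.26 for shLGR5-1 and -0.19 for shLGR5-2. The actin genes that rose under shLGR5-1 had a median span of 14.2 kb, those that fell 51.8 kb and those not called 35.5 kb. Between the hairpins, the coefficient over the 44 genes was -0.23. There the median spans were 35.2 kb for the higher genes and 35.5 kb for the lower. Once the span trend was removed, 39 of the actin genes could be fitted. Of these, 17 rose and 14 fell under shLGR5-1, and 20 rose and 8 fell under shLGR5-2. The shares of all genes called in that fit are not given here, so these counts have no background beside them. Without the trend, PFN1 changed sign under shLGR5-1, with a log2 fold change of -0.13 (limma adjusted p = 0.277). LIMA1, RDX, TAGLN, ENAH and TPM2 were not among the bright genes.

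**Figure D4:**
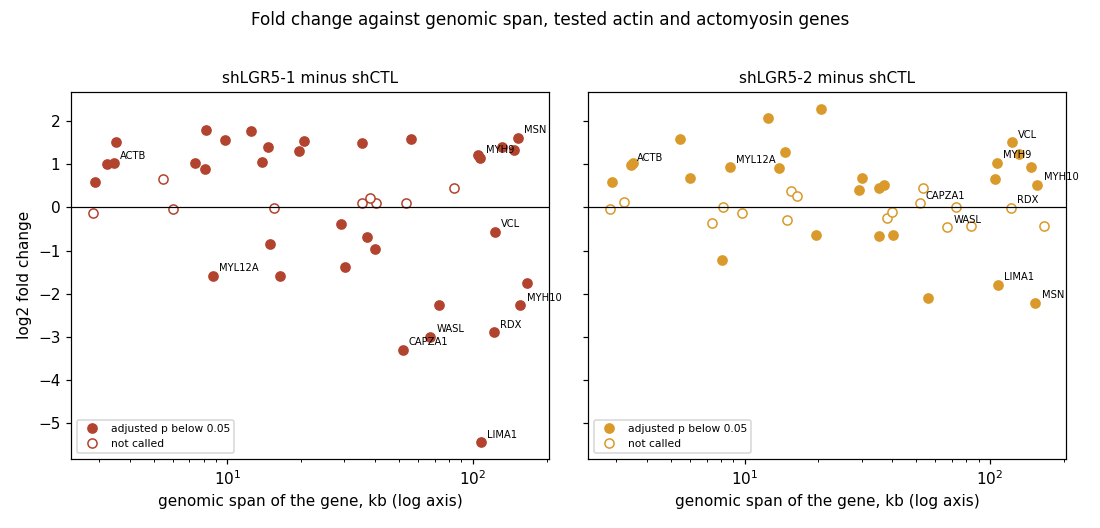
Log2 fold change against shCTL (vertical axis) by genomic span in kb on a log axis (horizontal) for the tested actin genes, shLGR5-1 in the left panel and shLGR5-2 in the right, 1 point per gene. Under shLGR5-1 the lowest 4 points, LIMA1, CAPZA1, WASL and RDX, have spans of 51.8 kb or more, and ACTB, at 3.45 kb, lies above 0. Long genes lie above 0 as well, among them MSN at 153.6 kb and MYH9 at 106.7 kb.

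More than 1 probe was kept for 18 of the 44 genes. Of 69 comparisons of another probe with the one used, over the 3 contrasts, 14 had the other sign and 21 lay more than 0.5 apart on the log2 scale. The genes where this touches a call include ARPC2, VCL, TPM1 and TPM4. For genes including PFN1, MYH9, CAPZB and ZYX it moves the size, as given above.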

How the data were processed

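The deposited intensity table used here held 47323 probes on 6 arrays, with 12 further value columns unused because their names match no sample. GenomeStudio is named in the submitters' processing notes, without a version. From the values, the authors' intensities were already background-subtracted (30.5% below 0 on every array) and quantile-normalized (arrays differ by at most 0.7 at equal rank). Probes were named through the platform annotation, with symbols updated through RefSeq: 30113 had 1 gene, 8 several and 17202 none listed, and the 3 genes without a named probe were not analysed here. A promoter sequence and 1 further gene list are not reported here.

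Values below 0 were set to 0, 16 was added and log2 taken, which understates changes of dim genes. Probes above 16.5 on both arrays of any group were kept, and the brightest kept probe (mean log2) stood for its gene. Group means were compared with limma 3.58.1 (lmFit, eBayes, R 4.3.3; 3 residual and 2.01 prior degrees of freedom) over all 6 arrays, two-sided, adjusted over 12111 genes, and the code was tested on simulated data. The 49 genes, the further lists and the markers were chosen with earlier results of these data known. Members were named by role, with full values for those changed at least 2-fold, and from each further list up to 4 genes by smallest adjusted p in a contrast. SRF and MRTFB were named outside that rule. The alternatives were an offset of 50, a floor of 1, no or a stricter filter, a replicate block, leaving out each array, averaged probes, centring, removal of the span trend and a fit to the compared arrays alone. No 2 arrays were identical, and the sources used here give no slide or scan batch. The number of arrays limits the precision.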

Additional observations from a re-analysis of the deposited data

Results flagged for a closer look

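For 11 of the 44 tested actin genes the 2 hairpin lines were called on opposite sides of shCTL, and the direct test of shLGR5-1 minus shLGR5-2 was also called (limma). On the log2 scale that difference was 3.68 for ACTA2, 3.82 for MSN, 2.14 for TLN1, 1.93 for VASP and 2.10 for TPM2, all higher under shLGR5-1. It was -2.79 for MYH10, -2.52 for MYL12A, -2.07 for VCL, -2.05 for CNN3, -1.21 for ARPC2 and -0.80 for TPM1, all lower under shLGR5-1. For ARPC2, CNN3, MYH10, TLN1, TPM1, TPM2, VASP and VCL at least 1 of the 2 calls against shCTL depended on a single array, as the report gives for each. Both comparisons with shCTL share its 2 arrays. How many of all genes tested meet the same rule was not counted, so the 11 are a description.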

How the results depend on the processing

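The counts of genes called kept within 1.5 times of their values under every alternative that used all arrays. The shares of all genes called under the alternatives are not given here, so a shift in these counts may not be particular to the actin genes. Without single arrays, the genes that rose numbered 19 to 21 under shLGR5-1 and 13 to 20 under shLGR5-2 against shCTL, and 12 to 15 between the hairpins. Those that fell numbered 12 to 15 under shLGR5-1, 3 to 7 under shLGR5-2, and 16 to 18 between the hairpins. The median log2 fold change moved to 0.16 under shLGR5-1 and to -0.66 between the hairpins once the genomic span trend was removed, which left 39 genes. That alternative also reversed PFN1 under shLGR5-1, to -0.13, and in shLGR5-1 minus shLGR5-2 it gave ACTB -0.66, ARPC4 -0.33, CFL1 -0.23, FSCN1 -0.34 and PFN1 -0.70. The cause was not tested.

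With the replicate block, 20 genes rose and 15 fell under shLGR5-1, 17 rose and 7 fell under shLGR5-2, and 15 were higher and 18 lower between the hairpins. Deviations at equal replicate numbers had correlations of 0.00, 0.02 and 0.01 between groups. With 2 arrays a group, these values cannot tell whether equal numbers shared a culture or a batch. Centring each array on its bright probes shifted shLGR5-1 against shCTL by 0.12, with 19 genes higher and 15 lower and no gene reversed. Of 35 calls under shLGR5-1, 28 were made under every alternative in which the gene was fitted, as were 16 of 27 under shLGR5-2 and 25 of 36 between the hairpins. Background correction from raw intensities (neqc) was not run, since those columns could not be assigned to samples. Folds of probes near background are limited by the noise, and 2 arrays a group cannot separate culture from technical spread.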
